A study of Arabidopsis thaliana with 4 samples.

Results

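A set of genes of xylem vessel formation was followed, cell by cell, through the cut root tip of Arabidopsis thaliana: 8 of the 20511 genes measured. They were chosen by name, as the cellulose synthases CESA4 (AT5G44030), CESA7 (AT5G17420) and CESA8 (AT4G18780), the membrane proteins TED6 (AT1G43790) and TED7 (AT5G48920), the cysteine proteases XCP1 (AT4G35350) and XCP2 (AT1G20850), and the peroxidase PRX66 (AT5G51890). All 8 were found in the matrix by these locus identifiers. Plants 7 days old, either wild type (WT) or lbd6 lbd36 lbd12 lbd15 quadruple mutants (lbd_quad), had their root tips cut and recovered for 16 h. The apical part of the primary root was then digested with wall-degrading enzymes, and the protoplasts, cells freed of their walls, were profiled by droplet sequencing of polyadenylated RNA. Each genotype has 2 libraries, and uncut roots are not among the groups.

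Xylem vessels are dead tubes that carry water. A cell that becomes a vessel lays down a patterned secondary wall of cellulose, xylan and lignin inside its primary wall, then kills itself and digests its contents. CESA4, CESA7 and CESA8 are subunits of the complex that spins secondary wall cellulose, and loss of any of them gives collapsed xylem. TED6 and TED7 are small membrane proteins of differentiating vessels, and TED6 has been reported to bind a secondary wall cellulose synthase subunit. XCP1 and XCP2 are papain-type proteases that break down the cell contents around death, and PRX66 is a class III peroxidase linked to lignin deposition in vessels.

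After removal of 2 cells marked as doublets, 10527 cells remained, 1746 and 5061 of them from WT replicates 1 and 2, and 844 and 2876 from the mutant replicates in the same order. Library totals ran from 7051891 to 21280667 unique molecular identifiers (UMIs, each standing for 1 captured transcript), and median depth per cell ran from 2090 UMIs in WT replicate 2 to 6364 in lbd_quad replicate 1. Of 10520 distinct barcodes, 9 were shared by libraries. Of the 4 mutated genes only LBD12 was lower in both mutant libraries. Over all cells LBD12 had 1743 and 1988 UMIs (WT) against 336 and 251 (lbd_quad), and in xylem-like cells 5, 13, 0 and 0. LBD15 was at 0.0426 and 0.0747 UMIs per 10000 (WT) against 0.0559 and 0.0682 (lbd_quad), LBD36 at 0.0147 and 0.0214 against 0.0223 and 0.0270, and LBD6 at 0.00383 and 0.00576 against 0.00294 and 0.00801. LBD15 had 1 and 10 UMIs in WT xylem-like cells and 15 and 18 in those of lbd_quad, while LBD6 and LBD36 had 0 and 1 there in all. A lesion need not lower the transcript, so these counts check the labels only in part. Levels below are UMIs of a gene per 10000 UMIs of a cell, averaged over cells, and nothing in the labels says whether the libraries came from separate plantings, so the spread between them may be technical.

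The region just upstream of each gene start was searched for 3 short motifs known from genes of vessel differentiation, because the 8 genes are active in the same cells. Sequences were read by locus identifier from RefSeq assembly TAIR10.1 and cover 250 bases before the annotated start. The assembly behind the deposited values is not given in the sources used here. The tracheary-element-regulating element (TERE, searched on both strands) occurred in 2 of the 8 windows, those of CESA4 and XCP1, and in 101 of 27443 windows genome-wide (0.368%). The 30 bases before the CESA4 start (chr5:17714360-17714389, plus strand) and the XCP1 window (chr4:16810232-16810481, plus strand) are shown 5′ to 3′ as the windows that hold it, with the motif in capitals.
CESA4: tacataataaCTTGAAAGCTActctaagtt
XCP1: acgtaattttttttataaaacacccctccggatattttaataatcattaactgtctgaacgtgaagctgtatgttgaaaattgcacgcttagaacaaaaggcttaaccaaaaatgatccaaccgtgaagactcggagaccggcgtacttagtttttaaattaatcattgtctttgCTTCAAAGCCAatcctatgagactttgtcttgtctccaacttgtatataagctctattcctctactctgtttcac
The match lies 10 to 20 bases before the start in CESA4 and 65 to 75 bases before it in XCP1. A binding element of VND-type NAC factors (SNBE) had a match in 5 of 8 windows against 42.6% of all windows, and 1 XCP1 match on each strand spans the TERE. The MYB46-type element (SMRE, 8 forms that fit ACCNANN, with A or T at the first N, A or C at the second and C or T at the last, on both strands) had a match in 1 window, that of CESA4, against 29.4%. A match describes the letters of a window and is not evidence of binding. The motifs were already known from genes of vessel differentiation, so their shares are a description and were not tested.

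Cells were clustered without the 8 genes, so that their levels played no part in the grouping. Of 30 clusters, 1 of 240 cells had the 3 or more raised xylem markers needed for a name. There 8 of 17 were raised, among them the master regulator VND7, the wall regulators MYB46 and MYB83, the xylan gene IRX9 and the cellulose-associated gene COBL4. Other clusters had at most 1 of the 17 raised. The cluster of 240 cells is called xylem-like. In these cells all 6 pericycle markers together summed to at most 0.181 UMIs per 10000 in any library, and the 15 phloem markers to between 0.174 and 0.514. Of the phloem markers 1 was raised over 2-fold, OPS, at 0.278 against 0.0544 in other cells, while the defining markers APL, NAKR1, SEOR1 and PP2-A1 stood at 0. The 8 procambium markers summed to 2.80 to 3.78, most of it ATHB8, a gene of vascular precursors that continues into early xylem. Of these markers 3 were raised over 2-fold. ATHB8 was at 2.82 against 0.123 in other cells, PXY at 0.373 against 0.00935 and TMO5 at 0.133 against 0.00827. The remaining procambium markers were lower than in other cells or at 0.

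All 8 genes were concentrated in the xylem-like cells. The share of a gene's UMIs that fell there was 90.4% for CESA4, 94.6% for CESA7 and 99.2% for CESA8. It was 91.5% for TED6, 97.6% for TED7, 98.9% for XCP1, 96.5% for XCP2 and 98.1% for PRX66. In the 504 phloem-like cells, which share the vascular cylinder with xylem, CESA4 had 2 UMIs in 2 cells, TED7 had 3 UMIs in 1 cell, and the other 6 genes had none. The median depth was 3265 UMIs in phloem-like and 5802.5 in xylem-like cells. The 76 pericycle-like cells held no UMI of any of the 8 genes. For a single gene, a count of 0 in those cells says only that it was not detected at this depth.

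**Figure D1:**
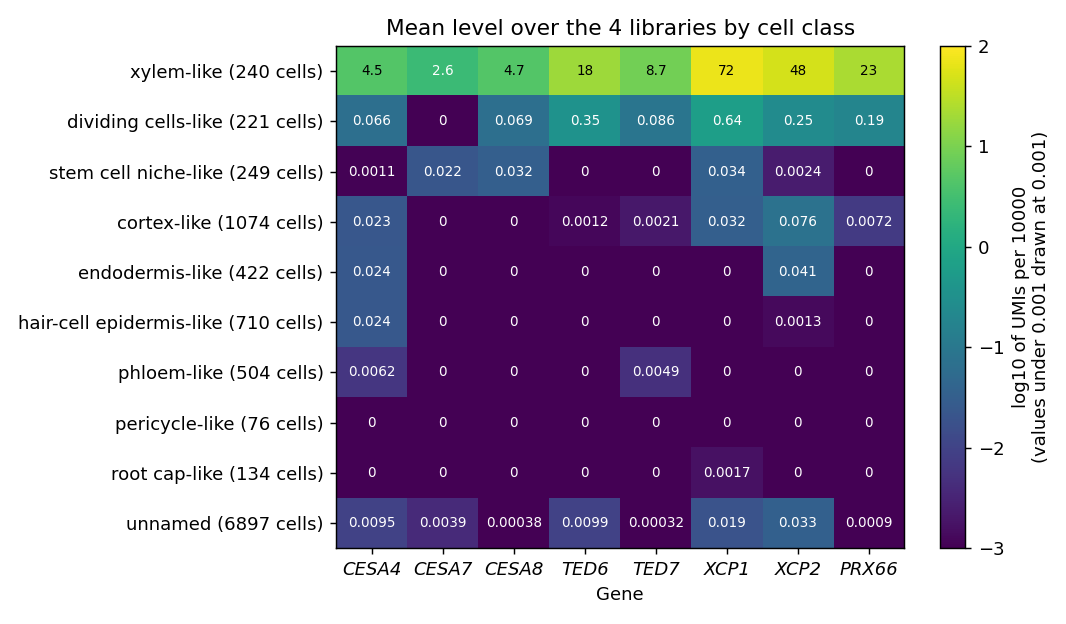
Mean level of each gene over the 4 libraries, as log10 of UMIs per 10000 (colour) with the value printed in each square, for xylem-like cells, the other classes and the cells in unnamed clusters. The top row runs from 2.58 (CESA7) to 71.5 (XCP1), while every other square lies below 1.

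Outside xylem-like cells the UMIs of CESA4 were scattered, with 68 in 64 cells. TED6 was less so, with 99 UMIs in 22 cells. Among 221 dividing cells-like cells, 3 cells held TED6, with 57 UMIs in all, 50 of them in a single cell. Each of those 3 cells held at least 3 of the 8 genes. Whether such a droplet held more than 1 cell was not tested. In an unnamed cluster of 209 cells, 203 of them WT, that carried the root cap markers BRN1 and BRN2, 9 cells held 29 UMIs of TED6 and none of these 9 held a CESA gene, TED7 or XCP1. The same cluster held 63 UMIs of XCP2 in 23 cells, against 1 UMI of XCP1. A second cluster with raised BRN1 and BRN2, 353 cells of which 301 were lbd_quad, held 9 UMIs of TED6 in 6 cells, of which 1 held at least 3 of the 8 genes, and it had 11 UMIs of XCP1 and 3 of XCP2. The number of XCP1 UMIs per CESA4 UMI was 14.5, 19.4, 18.5 and 17.3 within xylem-like cells of WT replicates 1 and 2 and lbd_quad replicates 1 and 2. Outside them it was 1.00 and 0.32 in the WT libraries and 8.9 in lbd_quad replicate 2, while lbd_quad replicate 1 had 16 XCP1 and 0 CESA4 UMIs there.

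Within xylem-like cells the genes were not all found together. No UMI of the 8 genes was seen in 106 of the 240 cells, and all 8 were found in 14 cells. XCP1 was detected in 118 cells and XCP2 in 117, CESA4 in 85, CESA8 in 55, CESA7 in 48, TED7 in 32, PRX66 in 24 and TED6 in 17. The smaller sets sat largely inside the larger ones. Of the 89 cells with any of the 3 CESA genes, 88 had XCP1, whereas 30 cells had XCP1 and no CESA gene. Those 30 cells were deep, with a median of 11494 UMIs, and their median XCP1 level was 12.6.

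TED6 and PRX66 marked the innermost set. All 17 xylem-like cells with TED6 also had PRX66 and XCP1, and no xylem-like cell had TED6 without PRX66, while 7 cells had PRX66 without TED6. The 3 CESA genes and both proteases were found together in 43 cells. Of these, 24 had neither TED6 nor PRX66, 5 had PRX66 and no TED6, and 14 had all 8 genes. The 24 cells without TED6 and PRX66 had a median depth of 11931.5 UMIs, and the 14 cells with all 8 genes had a median depth of 2969.5, so the cells lacking them were the deeper ones. The median XCP1 level was 184 in the 24 cells, 321 in the 5 cells and 476 in the 14 cells. The median CESA8 level was 6.94, 44.8 and 37.1 in the same order. These sets are defined by which genes were seen, so the levels of those genes across them are a description.

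**Figure D2:**
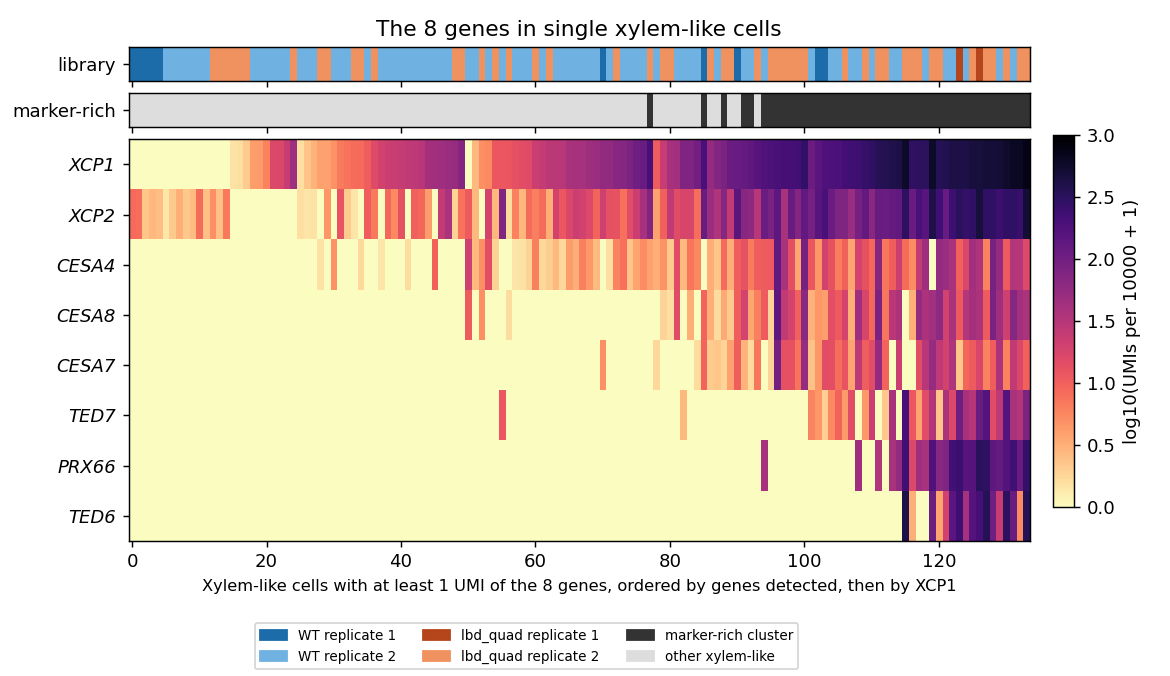
Each column is 1 of the xylem-like cells with at least 1 UMI of the 8 genes, ordered by the number of genes detected and then by XCP1. Colour is log10(UMIs per 10000 + 1), with strips for library and for membership of the marker-rich cluster. XCP1 and XCP2 reach farthest to the left, and TED6 and PRX66 are found toward the right end.

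A finer clustering, again without the 8 genes, gave 2 xylem clusters, which together held the 240 cells and 4 more. A marker-poor cluster of 199 cells had 4 of 17 xylem markers raised, namely VND7, MYB46, MYB83 and the thermospermine synthase ACL5. A marker-rich cluster of 45 cells had 15 of 17, among them the laccases LAC4, LAC11 and LAC17 of lignin synthesis and the xylem proteases MC9 and XSP1. Of the 8 procambium markers 3 were raised in the marker-poor and 1 in the marker-rich cluster. ATHB8 and PXY were at 3.38 and 0.517 in marker-poor cells, against 0.635 and 0.091 in marker-rich cells. How many of the marker-poor cells are vascular precursors was not tested. Median depth was close, at 5960 UMIs in the marker-poor and 5075 in the marker-rich cells. Of these cells, 13.0% and 14.3% (WT) against 20.0% and 25.0% (lbd_quad) were marker-rich, that is 3, 17, 2 and 23 cells. The 2 genotypes did not overlap, but 2 libraries against 2 cannot give an exact two-sided permutation p below 0.33.

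TED6 and PRX66 were not detected in any of the 199 marker-poor cells, and TED7 had 3 UMIs in 2 of them. XCP1 was present there, in 73 of 199 cells, with levels of 8.53 and 15.5 (WT) against 0 and 10.6 (lbd_quad). XCP2 was at 9.10 and 5.53 (WT) against 0 and 2.70 (lbd_quad). CESA4 was found in 42 marker-poor cells, at 0.462, 1.13, 0 and 0.522 in the same order of libraries. The library with no UMI of any of the 8 genes in marker-poor cells, lbd_quad replicate 1, had only 8 such cells.

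In marker-rich cells all 3 CESA genes stood above the marker-poor cells of the same library in each of the 4 libraries. CESA4 stood at 7.22 and 20.6 (WT) against 21.9 and 29.2 (lbd_quad), CESA7 at 8.39 and 14.1 against 8.69 and 17.7, and CESA8 at 5.02 and 24.3 against 23.0 and 33.8. The genotypes overlapped for CESA7 and CESA8, and both mutant values of CESA4 lay above both WT values. TED6 was at 0 and 20.2 (WT) against 224 and 78.8 (lbd_quad), from 0 of 3, 5 of 17, 2 of 2 and 10 of 23 cells. TED7 was at 1.48 and 15.3 against 109 and 31.6, and PRX66 at 0 and 60.1 against 286 and 74.7. For TED6, TED7 and PRX66 both mutant libraries lay above both WT libraries, but the highest value of each comes from the 2 marker-rich cells of lbd_quad replicate 1. XCP1 was at 174 and 301 against 442 and 360, and XCP2 at 156 and 134 against 398 and 188, again without overlap. Both mutant libraries thus lay above both WT libraries for 6 of the 8 genes, as they did for 11.1% of the genes averaging at least 0.1 in these cells, and with 2 and 3 cells in the smallest libraries no test was made.

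**Figure D3:**
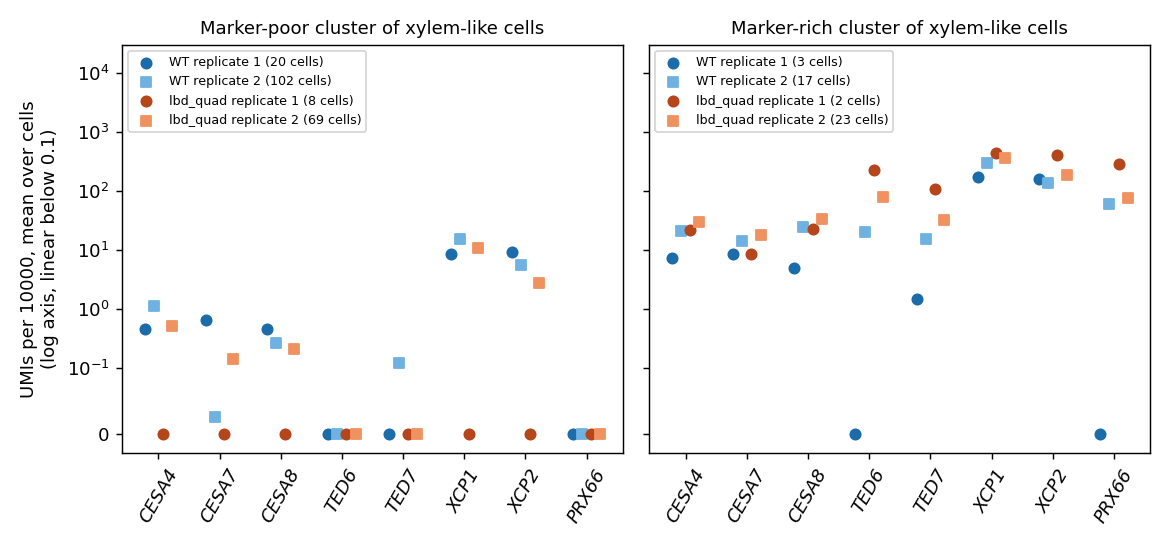
Level of each gene in the 4 libraries, in UMIs per 10000 on a log axis that is linear below 0.1, in the marker-poor (left) and marker-rich (right) xylem-like clusters, with cell numbers in the legend. TED6 and PRX66 are at 0 in all 4 libraries on the left. On the right they are at 0 in WT replicate 1 and between 20.2 and 286 in the other 3 libraries.

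Among the 45 marker-rich cells TED6 varied with TED7, PRX66 and the proteases more closely than with the CESA genes. Pearson correlations of log2(level + 1), given as a description because the cells come from 4 libraries and share depth, were 0.82 between TED6 and TED7 and 0.81 between TED6 and PRX66. TED6 was also correlated with XCP1 (0.75) and XCP2 (0.82). With TED6 the values were 0.11 for CESA4, 0.07 for CESA7 and 0.20 for CESA8. CESA7 and CESA8 were correlated at 0.78, CESA4 and CESA8 at 0.64, and CESA4 and CESA7 at 0.52. The genes did not form separate groups, since CESA8 also reached 0.46 with XCP1, 0.44 with PRX66 and 0.39 with XCP2.

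The 3 CESA subunits were compared as shares of their summed UMIs in xylem-like cells, with 95% exact (Clopper-Pearson) intervals that cover counting error only. CESA4 made up 43.8% (29.5 to 58.8%, 48 UMIs) in WT replicate 1 and 46.0% (41.3 to 50.8%, 439 UMIs) in WT replicate 2. It made up 40.7% (31.6 to 50.4%, 113 UMIs) in lbd_quad replicate 1 and 37.7% (34.6 to 40.8%, 985 UMIs) in lbd_quad replicate 2. CESA8 made up 16.7% (7.48 to 30.2%) and 31.4% (27.1 to 36.0%) in WT and 42.5% (33.2 to 52.1%) and 42.3% (39.2 to 45.5%) in lbd_quad. Both mutant shares of CESA8 thus lay above both WT shares. The intervals of WT replicate 2 and lbd_quad replicate 2 did not overlap, but they do not measure the spread between libraries. They also treat UMIs as independent, while 1 cell held 40 of the 48 CESA8 UMIs of lbd_quad replicate 1. CESA4 and CESA8 had 108 and 23 UMIs in marker-poor cells, against 532 and 588 in marker-rich cells. The marker-rich share differed between the libraries, and its part in the CESA shares was not tested. CESA7 made up 39.6% and 22.6% (WT) against 16.8% and 20.0% (lbd_quad). With 2 libraries each, no exact permutation test could pass 0.05. The proteases did not differ between genotypes in this way: XCP1 UMIs per XCP2 UMI were 0.933 and 2.67 (WT) against 1.09 and 2.25 (lbd_quad). TED6 UMIs per TED7 UMI were 0 and 0.713 (WT) against 2.02 and 2.54 (lbd_quad).

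The genotypes were then compared over all cells of each library. In such means, more xylem cells and more RNA per xylem cell cannot be told apart. The share of xylem-like cells was 1.26% and 2.35% in WT (1.81 ± 0.772%, SD, n = 2) and 1.07% and 3.13% in lbd_quad (2.10 ± 1.46%, SD, n = 2). The mutant values lay on both sides of the WT values, and the exact two-sided permutation p was 1.00. After thinning each cell to 1000 UMIs, the share of cells with a UMI of any of the 8 genes was 1.26% and 2.26% (WT) against 0.592% and 2.27% (lbd_quad), also with an exact permutation p of 1.00. Thinning left out 1218 WT and 632 lbd_quad cells that were shallower. Without thinning the shares were 3.67% and 3.87% against 2.25% and 3.20%, with an exact permutation p of 0.33, the smallest that 2 libraries against 2 allow.

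The CESA genes did not separate the genotypes over all cells. CESA4 was at 0.0281 and 0.123 (WT) against 0.0519 and 0.257 (lbd_quad) UMIs per 10000. CESA7 was at 0.0238 and 0.0551 against 0.0217 and 0.148, and CESA8 at 0.0139 and 0.0944 against 0.0544 and 0.278. In each case a mutant library lay within or below the WT range. On the scale of log2(level + 0.1), which understates changes of genes this low, the mutant-minus-WT differences were 0.46 (SE 0.43) for CESA4, 0.33 (SE 0.34) for CESA7 and 0.70 (SE 0.44) for CESA8. The adjusted p in limma was 0.875, 0.893 and 0.808. Without lbd_quad replicate 2 the differences of CESA4 and CESA7 turned to -0.155 and -0.187, and CESA8 ran from 0.0534 without lbd_quad replicate 2 and 0.314 without WT replicate 1 to 1.35 without lbd_quad replicate 1 (limma adjusted p 0.0346).

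TED6 was higher in lbd_quad, and it was the only one of the 8 genes to pass the test. Its level was 0.0116 in WT replicate 1 and 0.0766 in WT replicate 2, and 0.536 and 0.659 in lbd_quad replicates 1 and 2, from 24, 84, 429 and 621 UMIs. The WT mean was 0.0441 ± 0.0460 (SD, n = 2) and the mutant mean 0.597 ± 0.0869 (SD, n = 2), without overlap of the libraries. The difference was 2.31 on the log2(level + 0.1) scale (SE 0.29, adjusted p 0.0236 in limma over 9512 genes). Across all genes tested 0.389% passed, made up of 0.137% higher and 0.252% lower in the mutant, and both mutant libraries lay above both WT libraries for 19.2%. That was so for 4 of the 8 genes here, TED6, TED7, XCP2 and PRX66.

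The TED6 difference rested on few cells. TED6 was detected in 5 and 11 cells of the WT libraries and in 5 and 18 cells of the mutant libraries. In lbd_quad replicate 1, 98.6% of its UMIs came from 2 cells, both marker-rich, and in lbd_quad replicate 2, 83.6% came from 5 cells. In WT replicate 1 no TED6 UMI fell in the 22 xylem-like cells, and the 24 UMIs came from 5 cells outside them. Without the highest cell of each gene and library, an analysis added after the data were seen, the difference was 1.92 (limma adjusted p 0.0633). Without the 5 highest cells it was 0.45 (limma adjusted p 0.895), so the call was lost in both. Removing 5 cells leaves no TED6 UMI in WT replicate 1 or lbd_quad replicate 1, so the second fit cannot decide whether the call holds. The call also depended on the settings, passing in 8 of 14 alternatives. Those 8 include every fit without 1 library and the fit with a replicate block. The limma adjusted p was 0.127 for UMIs summed per library and 0.329 with voom. It was 0.0678 with a pseudocount of 0.01 and 0.163 with no filter on low values.

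**Figure D4:**
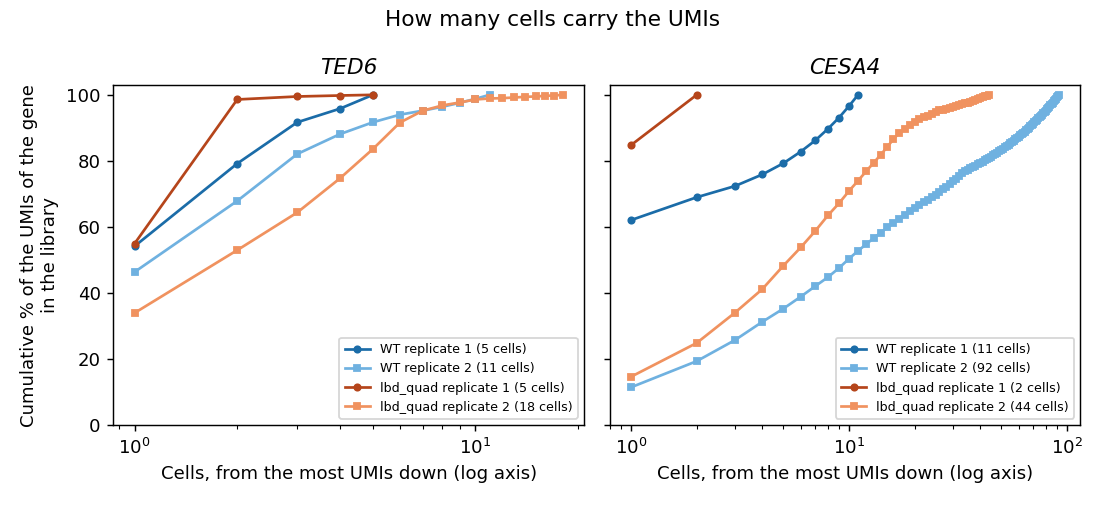
Cumulative percent of a gene's UMIs in a library (vertical axis) against the number of cells counted from the highest down (horizontal log axis), for TED6 and CESA4. The 2 highest cells of lbd_quad replicate 1 hold 98.6% of its TED6 UMIs, and CESA4 in WT replicate 2 is spread over 92 cells.

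TED7, the other membrane protein, was at 0.00255 and 0.0557 (WT) against 0.258 and 0.260 (lbd_quad). Its libraries did not overlap, and the difference was 1.51 (SE 0.26, limma adjusted p 0.0763). PRX66 was at 0.00351 and 0.204 (WT) against 0.679 and 0.612 (lbd_quad), again without overlap, with a difference of 2.07 (SE 0.46, limma adjusted p 0.135). Neither passed 0.05 in this fit, while TED7 passed when cells under 2000 UMIs were left out (1.67, limma adjusted p 0.043). In lbd_quad replicate 1 all UMIs of both genes came from 2 cells. Without the 5 highest cells of each gene and library the differences were 0.115 for TED7 and 0.552 for PRX66. That removal leaves no UMI of either gene in WT replicate 1 or lbd_quad replicate 1, so it cannot decide whether the differences hold. WT replicate 1 had only 2 UMIs of TED7 and 3 of PRX66, and without it the differences were 1.20 for TED7 and 1.29 for PRX66.

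The proteases, which clear the dying cell, did not pass the test either. XCP1 was at 0.407 and 1.34 (WT) against 1.08 and 3.19 (lbd_quad), where a mutant library lay within the WT range. The difference was 1.20 (SE 0.60, limma adjusted p 0.713), and it was 0.446 without WT replicate 1 and 0.461 without lbd_quad replicate 2. XCP2 was at 0.442 and 0.603 (WT) against 0.950 and 1.60 (lbd_quad) without overlap, with a difference of 1.11 (SE 0.32, limma adjusted p 0.289) that came to 0.188 without the 5 highest cells. The median difference of the 8 genes was 1.16, against 0.01 for all genes tested. The 8 genes are found largely in the same cells, so their differences are not separate observations. Without the 5 highest cells of each gene and library the differences ran from 0.0716 (CESA4) to 0.621 (XCP1). In lbd_quad replicate 1 that removal takes every UMI of all genes but XCP1 and XCP2. For XCP1 and XCP2 the 5 highest cells there held 99.2% and 99.6% of the UMIs. The range therefore cannot decide whether the differences hold.

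**Figure D5:**
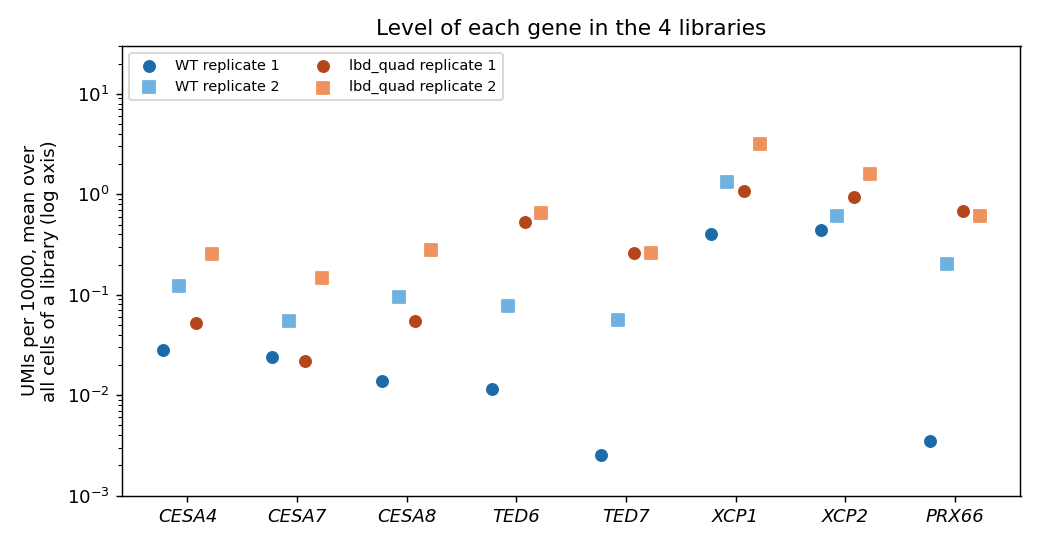
Level of each gene in each of the 4 libraries, in UMIs per 10000 averaged over all cells, on a log axis. For TED6, TED7, XCP2 and PRX66 both lbd_quad points lie above both WT points, and for CESA4, CESA7, CESA8 and XCP1 the genotypes overlap.

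Inside xylem-like cells the level per cell could not be tested, since lbd_quad replicate 1 had 9 such cells and at least 20 in every library were required. The values were 0 and 2.88 (WT) against 49.8 and 20.1 (lbd_quad) for TED6, 0.202 and 2.30 against 24.2 and 8.07 for TED7, and 0 and 8.58 against 63.7 and 19.1 for PRX66. XCP1 was at 31.4 and 56.4 against 98.2 and 100, XCP2 at 29.6 and 23.9 against 88.3 and 50.1. CESA4 was at 1.40 and 3.91 against 4.86 and 7.85, CESA8 at 1.10 and 3.70 against 5.10 and 8.81, and CESA7 at 1.74 and 2.04 against 1.93 and 4.62. For 7 of the 8 genes both mutant libraries thus lay above both WT libraries per xylem-like cell, and CESA7 overlapped. The same held for 16% of the genes averaging at least 0.1 in these cells. In lbd_quad replicate 1 the UMIs of all 8 genes came from the same 2 of its 9 xylem-like cells. The 8 genes are therefore not separate observations. The larger marker-rich share in lbd_quad moved with these values, and its part in them was not tested.

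Other genes of the wall and of vessel death showed where the 8 genes stand. Many were too low to be tested over all cells, where the filter kept 17 of 22 lignin genes but 5 of 17 xylan genes and 2 of 23 xylem regulators. None of the list genes tested passed in limma. All 17 xylem markers used to name the cluster belong to these lists, so counts of list genes raised in xylem-like cells were partly fixed in advance. The share of all genes raised there was not taken, so the counts are a description. Of 5 genes that work with secondary wall cellulose, 4 were more than 2-fold higher in xylem-like cells than elsewhere, and the 3 highest were CTL2, FLA11 and FLA12. CTL2, a chitinase-like protein linked to cellulose deposition, was at 0 and 4.64 (WT) against 30.1 and 13.0 (lbd_quad) in xylem-like cells, an order shared with TED6. The fasciclin-like proteins did not share it: FLA11 was at 13.9 and 12.8 against 3.55 and 10.1, and FLA12 at 11.2 and 6.35 against 3.93 and 5.40. None of 6 primary wall cellulose synthases was raised 2-fold in xylem-like cells, and CESA3, CESA6 and CESA1, which make the wall of growing cells, averaged 1.85, 1.28 and 0.567 there and 2.39, 1.97 and 1.10 elsewhere.

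Of 17 xylan genes, 13 were more than 2-fold higher in xylem-like cells, with IRX9 at 0.0460 and 2.04 (WT) against 7.44 and 5.42 (lbd_quad). TBL29, a xylan acetyltransferase, was at 3.24 and 2.47 against 1.14 and 2.68, and GUX1, which adds glucuronic acid to xylan, at 1.10 and 1.71 against 4.09 and 2.03. Of 22 lignin genes, 9 were more than 2-fold higher, and the 3 highest by level, CCoAOMT1, C4H and PAL1, were lower in marker-rich than in marker-poor cells (15.2 against 32.4 for CCoAOMT1). Over all cells 9 of the 17 lignin genes tested had both mutant libraries above both WT libraries, against 19.2% of all genes, with a median difference of 0.58, and none passed. The mutant libraries were both lower than either WT library for 3 of 5 primary wall cellulose synthases and 2 of 5 xylan genes tested, against 17.8% of all genes. These means over all cells mostly describe cells other than xylem. A median of 5.22% of the UMIs of the 22 lignin genes fell in xylem-like cells, with 0% for PRX64 and PRX71 and 92.1% for LAC11. For the 5 xylan genes tested the share was 4.52 to 14.0%.

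Of 5 genes of xylem cell death, 4 were more than 2-fold higher in the mean over the libraries. MC9 was not, at 6.79 in xylem-like cells and 4.31 elsewhere. For the nucleases RNS3 and BFN1 the 2-fold rise was not seen in WT. RNS3 was at 0 and 0.960 (WT) against 24.0 and 6.96 (lbd_quad), and the metacaspase MC9 at 0.255 and 0.454 against 20.8 and 5.64, while ACL5 was at 1.45 and 2.32 against 8.66 and 7.25. Over all cells RNS3 stood at 4.97 and 3.17 and MC9 at 6.55 and 1.96 in the WT libraries, above their xylem-like levels there. BFN1 was at 0 and 0.343 in WT xylem-like cells, with 0.666 and 0.316 over all cells, and at 5.76 and 1.11 in the mutant ones. RNS3 and MC9 are not specific to xylem, and only 2.49% and 1.29% of their UMIs fell in xylem-like cells. Of 23 xylem regulators, 22 were more than 2-fold higher, with MYB46 at 2.50 and 3.70 against 1.08 and 6.60 and VND7 at 1.21 and 1.45 against 1.98 and 1.79. Some of the 22 were near the floor, with 4 UMIs in all for MYB85, 13 for MYB54 and 17 for VND6. The exception was VNI2, a repressor of VND7, at 1.70 in xylem-like cells and 2.91 elsewhere. Of 8 wall patterning genes, 5 were raised, among them MIDD1 (1.09 and 1.83 against 2.52 and 2.90), IQD13 (1.58 and 1.68 against 0.914 and 2.52) and ROP11 (3.19 and 0.922 against 0.823 and 1.18).

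The genes most like the 8 in pattern were found by correlating log2(level + 0.1) with their mean over 91 units of cluster and library. Only 3 of these units were xylem-like, so the correlations rest largely on them. The 10 highest were DMP2 (0.976), RIC4 (0.953), AT2G28315 (0.926), CTL2 (0.922), GLP10 (0.914), GL22 (0.907), AT3G27200 (0.906), AT2G04850 (0.906), FLA11 (0.893) and AT5G40020 (0.883). Single genes differed in their neighbours. CTL2 and GL22, a germin-like protein, came first for TED6 (0.956 and 0.956) and for PRX66 (0.984 and 0.978), DMP2 came first for TED7 (0.981), and RIC4, a ROP-interacting protein, came first for CESA4, CESA8 and XCP1 (0.958, 0.958 and 0.956). CESA7 was most like AT2G04850 (0.949) and XCP2 most like AT3G27200 (0.924). GL22 was at 0 and 2.27 (WT) against 52.4 and 20.5 (lbd_quad) in xylem-like cells, and RIC4 at 5.03 and 9.09 against 8.31 and 13.1.

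Sequence sharing was checked because counts come from transcript ends. None of the 470 stretches of 31 bases in the last 500 exonic bases of each of the 8 genes occurred elsewhere in the genome. Annotated genes overlap the ends of 5 of them. The 3′ end of CESA8 overlaps AT4G18770 on the opposite strand by 481 bases, a gene not analysed here, and that of PRX66 overlaps AT5G51880 by 118 bases. The ends of CESA4, CESA7 and XCP1 overlap opposite-strand neighbours by 65, 66 and 2 bases. The 5′ end of CESA4 overlaps AT5G44020 on the same strand by 17 bases, and the window searched upstream of CESA4 overlaps that gene too. The window upstream of TED7 overlaps AT5G48910, and no other window overlaps an annotated protein-coding gene. AT5G44020 had 29367 UMIs, 0.541% of them in xylem-like cells. Whether the counting used strand is not given in the sources used here. Of the UMIs of AT5G51880, 6.0% fell in xylem-like cells, against 98.1% for PRX66.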

How the data were processed

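Single-cell RNA libraries of 4 samples were analysed, 2 of WT and 2 of lbd_quad, taken as groups from the labels. The authors deposited 1 matrix of 20578 rows and 13844 columns, of which 10529 columns matched a sample and 3315 did not and were not used. Per the submitters' processing notes, Cell Ranger 7.0.1 and Seurat were used. The deposited values are natural log values: taking the exponential and subtracting 1 gave 10000 per cell, and 100% of values came out as whole UMIs within 0.01. The 67 rows that name no gene (0.0286% of UMIs) were left out, and all 20511 locus identifiers matched the reference.

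The 8 genes and the lists were chosen with earlier results of these data known. Scrublet in scanpy 1.11.5 marked 2 of 10529 cells (0.019%), too few to rely on, so doublets may remain. Clustering left out the 8 genes and used 2000 variable genes, 40 components, 15 neighbours and Leiden resolution 1 (2 for the finer clusters). A class needed at least 3 markers raised 2-fold and found in 10% of cells. Per library, levels were averaged over cells, and log2(level + 0.1) was tested with limma 3.58.1 in R 4.3.3 with Benjamini-Hochberg adjustment at 0.05. Genes averaging under 0.1 were left out except the 8, of which CESA7 alone was below. For shares of cells an exact two-sided permutation test over libraries was used. The genes named are the 8, any list gene past the threshold, the 3 highest of each list in xylem-like cells, and the genes most like the 8 (10 for their mean, 3 for each). Alternatives changed the pseudocount, filter, averaging, model, scaling, cells, clustering and libraries. Intervals cover counting error only.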

Additional observations from a re-analysis of the deposited data

How the results depend on the processing

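The number of genes past the limma threshold over all cells was 37. It was 21 with a pseudocount of 1, 19 with median-of-ratios size factors, 1 with UMIs summed per library, and 0 both with voom (753 genes at an unadjusted p under 0.05) and with no filter (1559 genes). Without the 5 highest cells it was 61. Fits without 1 library gave 167 to 288, and assume that the lone library varies like the others. In these, TED7 and PRX66 passed in all 4, XCP1 without WT replicate 2 (limma adjusted p 0.00404) or lbd_quad replicate 1 (0.0149), XCP2 without lbd_quad replicate 1 (0.0498) and CESA8 without lbd_quad replicate 1 (0.0346). The samples share only replicate numbers, with a correlation of deviations of 0.51 for equal numbers. With 2 libraries per group the value for crossed numbers is its negative by construction. A replicate block gave 504 calls, with XCP1 (limma adjusted p 0.0108), XCP2 (0.0144), TED7 (0.00296) and PRX66 (0.00766) also past the threshold. Without 1 library CESA4 ran from -0.155 to 1.08 and CESA7 from -0.187 to 0.838, both lowest and reversed without lbd_quad replicate 2. No alternative reversed the other 6 genes. The difference in xylem-like share was 0.292 percentage points and ran from -0.739 to 1.32 without 1 library. That in cells with a UMI of the 8 genes was -0.329, ran from -1.17 to 0.511 without 1 library, and was 0.121 with at least 2 genes per cell. The cause of these changes was not tested. The test within xylem-like cells and its alternatives were not run, because lbd_quad replicate 1 had under 20 such cells in every definition. Depth limits what the low CESA levels can show.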
